A study of Homo sapiens with 4 samples.

Results

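AMP-activated protein kinase (AMPK) subunits and the kinases that switch it on were examined in GIST-T1, a line of human gastrointestinal stromal tumor (GIST) cells grown in culture, after transfection of a miR-335 mimic. The genes were PRKAA1, PRKAA2, PRKAB1, PRKAB2, PRKAG1, PRKAG2, STK11, CAB39 and CAMKK2, which makes 9 of the 36337 gene names on the array, and every probe carrying one of these names and not marked as a control was taken (11 probes). They were chosen from the differences between mimic and control in these same arrays, so those differences are given as a description with no p-value. The labels put 2 arrays in the mimic group (100 pmol of a double-stranded RNA that acts as the mature microRNA) and 2 in the control group (100 pmol of a negative control RNA with no intended target). Both RNAs were delivered by electroporation into the same line, and total RNA was extracted after 48 h, of which 100 ng was labeled with a single dye and hybridized to a human 60-base oligonucleotide array.

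The model was 1 cell line with no untransfected cells. Nothing states that the 2 arrays of a group came from separate transfections, so errors cover only spread between arrays. Standard errors (SE) are those of limma, a linear model fit that draws each probe's own spread between arrays toward that of all tested probes. The description of both mimic samples also carries the name of a miR-34a mimic, whereas their titles and transfection labels name miR-335. The mimic itself is not measured by these arrays, so the labels were not checked against it. Of 50599 probes, the scanner software marked between 40.3% and 41.9% per array as well above background. All 6 markers of GIST and of interstitial cells of Cajal were detected on every array (KIT, ANO1, ETV1, CD34, PRKCQ and PDGFRA), 0 of 3 Schwann cell markers were detected on any array, and the markers of other cell types seen on all 4 arrays were DES and ACTG2 of smooth muscle, EPCAM of epithelium and CD14 of leukocytes.

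AMPK is a heterotrimer that senses falling cellular energy. A catalytic alpha subunit (alpha1 from PRKAA1 or alpha2 from PRKAA2) is held by a scaffold beta subunit and a gamma subunit that binds AMP, ADP and ATP. The kinase becomes active when a threonine in the activation loop of the alpha subunit is phosphorylated, by LKB1 (the product of STK11, working with the scaffold MO25 from CAB39) or by the calcium-dependent kinase CaMKK2. Active AMPK then restrains lipid synthesis and growth signaling and promotes energy production. The alpha1 subunit is found in most tissues and alpha2 is prominent in skeletal muscle and heart. These arrays measured transcripts, and neither subunit proteins nor kinase activity.

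The mature sequences of the miR-335 hairpin are shown because the transfected agent imitates one of them and the labels do not say which arm. They are printed 5′ to 3′ from RefSeq (GRCh38.p14, plus strand), at chr7:130496126-130496148 for the 5p arm and chr7:130496162-130496183 for the 3p arm. Capitals mark the seed, bases 2 to 8, with which a microRNA pairs to its targets.
hsa-miR-335-5p: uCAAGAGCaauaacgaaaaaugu
hsa-miR-335-3p: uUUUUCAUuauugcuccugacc
The letters complementary to the 5p seed, GCTCTTG, were present in 0 of the 11 probes and in 0.437% of all probes on the array. Those complementary to the 3p seed, ATGAAAA, were present in 0 of the 11 and in 1.22% of all probes. A probe covers 60 bases of a transcript, and the rest of each transcript was not searched.

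Signals are given as log2 of the processed intensity minus the 75th percentile of the array, so that 1 unit is a factor of 2. A level below 0 lies under that percentile. Levels of different probes depend on each probe's own hybridization and were not set against each other, so only differences between arrays and detection were compared. All 11 probes were among the 20328 detected (flagged as well above background) in both replicates of the mimic group, the control group or both, and 10 of the 11 were detected on all 4 arrays. The remaining probe, that of PRKAA2, passed only through the control group, as did 460 of the 20328.

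PRKAA2, which encodes the alpha2 catalytic subunit, was the one gene of the 9 with a large difference. Its single probe (chr1:57180117-57180176, plus strand, hg19) read -2.33 and -2.72 on the mimic arrays and -0.99 and -0.95 on the control arrays. Both mimic arrays lay below both control arrays. The difference of means was -1.56 ± 0.15 (SE, n = 2 arrays per group), a level 2.94-fold lower with the mimic, and single mimic arrays set against single control arrays gave between 2.54-fold and 3.41-fold (4 pairings).

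The PRKAA2 probe lost its detection flag on 1 array. It was well above background on both control arrays and on mimic replicate 1, but not on mimic replicate 2, where its processed intensity was 27.8 units against 37.6 on mimic replicate 1 and 90.3 and 93.9 on the control arrays. None of these 4 intensities was a surrogate value set by the scanner software. With mimic replicate 2 left out, so that every array used was well above background, the difference was -1.36 (2.57-fold lower). With mimic replicate 1 left out it was -1.75, with control replicate 1 left out -1.57 and with control replicate 2 left out -1.54. The mimic arrays differed from each other by 0.39 at this probe and the control arrays by 0.03. The mean of PRKAA2 over the 4 arrays, -1.75, lies between its means in the mimic (-2.53) and control (-0.97) groups. Among 1416 tested probes with a mean within 0.25 of it, the median difference between replicate arrays was 0.18 in both groups. The 95th percentile was 0.62 in the mimic and 0.64 in the control group. These spreads are given for scale only, since PRKAA2 was chosen for its difference between the groups and passed the filter through the group where it is high. The value depended on the background correction. With the normexp method, which adds an offset of 50 that shrinks the changes of dim probes, the difference was -0.66 ± 0.07 (SE), or 1.58-fold lower. It had the same sign under every scaling tried (-1.54 to -1.74 apart from normexp).

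PRKAA1, the gene for the paralogous alpha1 subunit, had a pair of probes and both were well above background on all 4 arrays. The brighter one (chr5:40759598-40759657, minus strand, hg19) read -0.12 and 0.21 on the mimic arrays and 0.03 and 0.23 on the control arrays, a difference of -0.09 ± 0.15 (SE, n = 2). The groups overlapped at this probe, and its replicates differed by 0.33 in the mimic group, more than the groups did. Its sign was not stable: the difference was 0.08 without mimic replicate 1 and 0.01 without control replicate 2. The second probe (chr5:40769519-40769578, minus strand, hg19) read -0.41 and -0.59 with the mimic and -0.70 and -0.65 in the control, a difference of 0.18 ± 0.08 (SE, n = 2), or 1.13-fold higher with the mimic under the main scaling. Here the groups did not overlap, but they lay close together, and scaling to the external spike-in probes brought the difference to -0.01. Thus the probes of PRKAA1 disagreed in sign, neither differed by more than 1.13-fold under the main scaling, and the mean over both was 0.04.

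The second PRKAA1 probe is shown because it reads the part of the coding sequence where AMPK is switched on. It is printed 5′ to 3′ as on the array, and the capitals mark the codon (bases 12 to 14) of the activation-loop threonine that LKB1 and CaMKK2 phosphorylate.
PRKAA1 probe 2: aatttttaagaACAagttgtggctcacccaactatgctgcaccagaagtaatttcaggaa
The frame with this codon is open over the whole probe. The PRKAA2 probe and the brighter PRKAA1 probe, by contrast, carry a stop codon in every frame (0 open frames), as do the PRKAB2 probe and the second CAB39 probe. Thus the PRKAA2 value and the second PRKAA1 value do not come from matching parts of the paralogous transcripts, and whether the PRKAA2 difference extends along its transcript was not tested, since the array has 1 probe for it.

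Both catalytic genes were then set side by side. The difference at PRKAA2 minus that at the brighter PRKAA1 probe was -1.47, with a range over the 4 pairings of arrays from -1.91 to -1.03. Against the second PRKAA1 probe it was -1.74, ranging from -1.85 to -1.62. These contrasts carry no p-value because the pair was chosen on the same arrays. A scaling that subtracts 1 value per array shifts both genes alike and leaves these contrasts as they are, but under normexp they were smaller, at -0.63 and -0.77.

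**Figure D1:**
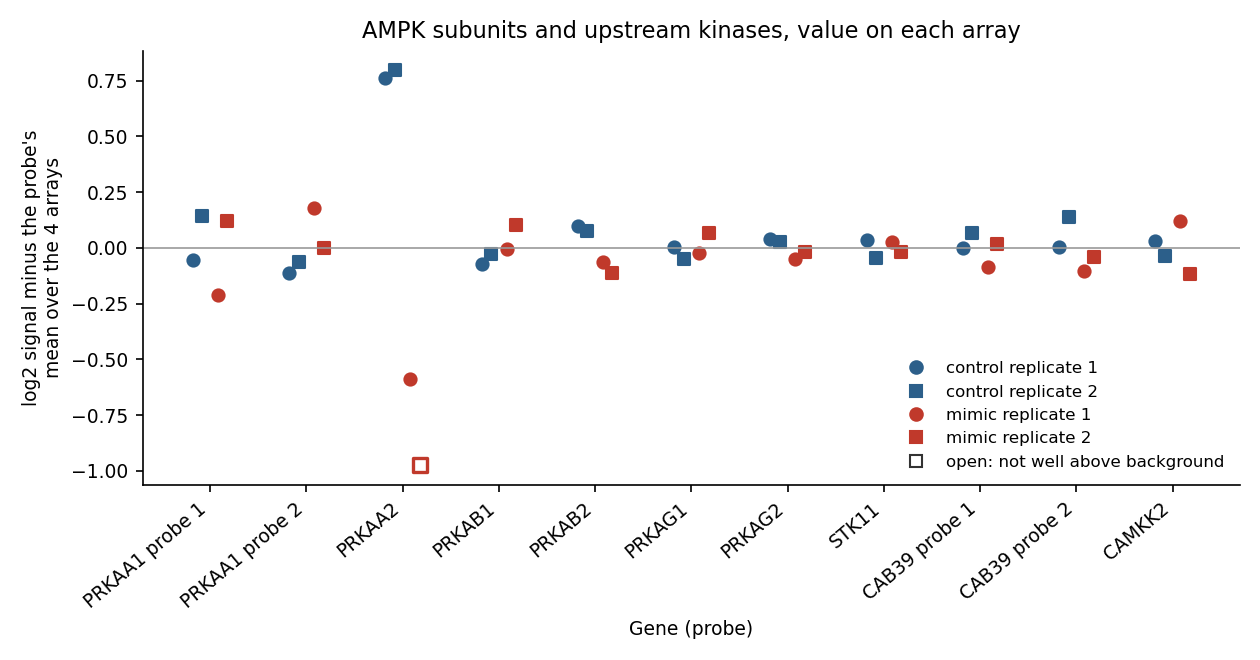
Value of each probe on each of the 4 arrays, as log2 signal minus that probe's mean over the arrays (blue, control; red, mimic; circles, replicate 1; squares, replicate 2; open symbols, not well above background). PRKAA2 shows the mimic arrays far below the control arrays, with mimic replicate 2 open, whereas at the other 10 probes the 4 arrays lie close together.

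The scaffold subunits differed little. PRKAB1, the gene for beta1, read 1.54 and 1.65 on the mimic arrays and 1.47 and 1.52 on the control arrays, a difference of 0.10 ± 0.06 (SE, n = 2). PRKAB2, the gene for beta2, read 0.08 and 0.03 with the mimic and 0.24 and 0.22 in the control, a difference of -0.18 ± 0.04 (SE, n = 2). At both genes the mimic arrays lay outside the range of the control arrays, PRKAB1 above and PRKAB2 below, although PRKAB1 changed sign under spike-in scaling (-0.09). PRKAB2 was the lowest difference after PRKAA2, and it was 1.13-fold lower with the mimic. It kept its sign in all 9 alternatives for the scaling, the background and the arrays used. The signs of PRKAA2, PRKAG2 and both CAB39 probes held in all 9 as well.

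The gamma subunits, which bind the adenine nucleotides, also differed little. PRKAG1, the gene for gamma1, read 2.36 and 2.45 on the mimic arrays and 2.39 and 2.34 on the control arrays, and the groups overlapped (difference 0.04 ± 0.05 SE, n = 2). PRKAG2, the gene for gamma2, read 1.15 and 1.18 with the mimic against 1.24 and 1.23 in the control. Its difference of -0.07 ± 0.04 (SE, n = 2) was small, although its replicates were close enough that the groups did not overlap. PRKAG3, the gene for the muscle gamma3 subunit and the only AMPK subunit gene outside the 9, was well above background on all 4 arrays and differed by 0.00 ± 0.05 (SE, n = 2; limma adjusted p 0.961).

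Among the activators, STK11 (LKB1) read 2.66 and 2.62 on the mimic arrays and 2.67 and 2.59 on the control arrays, a difference of 0.01 ± 0.05 (SE, n = 2). CAB39, whose product MO25 stabilizes the LKB1 complex, differed by -0.07 ± 0.06 (SE, n = 2) at its brighter probe, with overlapping groups. Its second probe read -0.77 and -0.72 with the mimic and -0.67 and -0.53 in the control, a difference of -0.14 ± 0.07 (SE, n = 2), and there the groups did not overlap. CAMKK2 differed by 0.00 ± 0.10 (SE, n = 2), and its mimic arrays, at -0.26 and -0.50, spanned both control arrays, at -0.35 and -0.42. No upstream gene was past 1.5-fold in either direction.

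**Figure D2:**
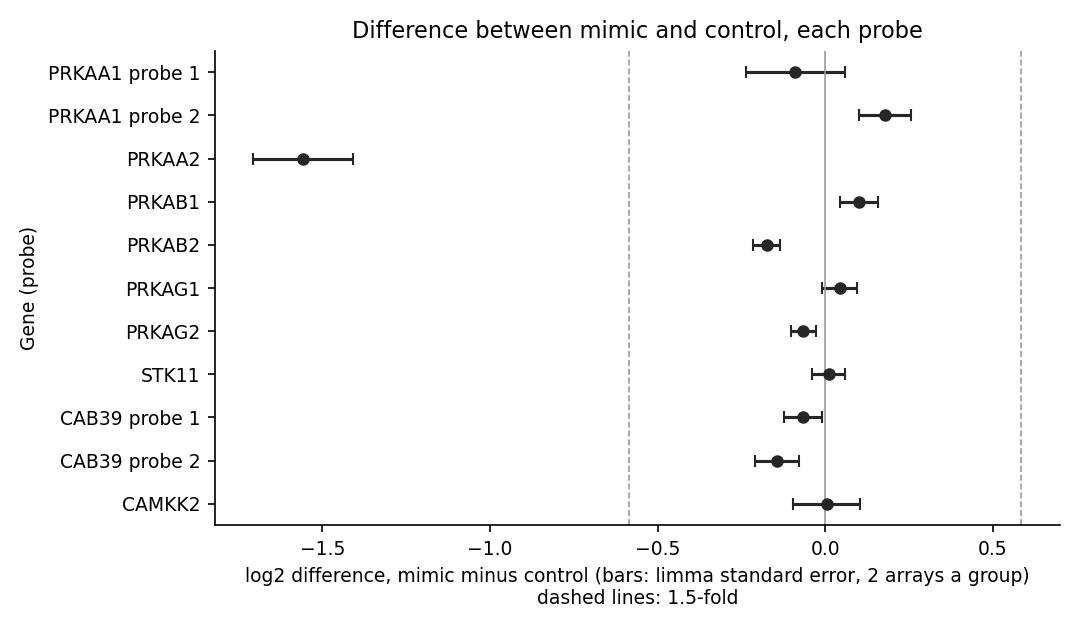
Difference between mimic and control at each of the 11 probes, on the log2 scale (points, difference of means; bars, limma standard error from 2 arrays per group; dashed lines, 1.5-fold). PRKAA2 lies at -1.56, and the other 10 probes lie between -0.18 and 0.18.

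Over all 11 probes, 6 were lower and 5 higher with the mimic, and their median difference was -0.07, against -0.01 over all tested probes. Past a 1.5-fold difference there was 1 probe lower (PRKAA2), where 1.47% of all tested probes were, and 0 probes higher, where 2.43% of all tested probes were. The tested probes nearest to the limit for lower signal were at -0.59, just past it, and -0.58, just short of it, far from PRKAA2. In limma with Benjamini-Hochberg adjustment over all 20328 probes, 1 of the 11 was called, again PRKAA2, where 2.62% of all probes were called and 1.15% were called lower. Since the genes were chosen on this contrast, nothing is read from these counts. The groups did not overlap at 6 of the 11 probes, of which 4 were lower and 2 higher, where 32.5% of all tested probes were lower without overlap and 27.1% were higher. At 7 of the 10 probes other than PRKAA2 the difference between groups was no larger than the difference between the replicates of at least 1 group. The 10 differences had standard errors from 0.04 to 0.15, and the number of arrays limits their precision. With 2 arrays against 2, an exact permutation test cannot give a two-sided p below 0.333.

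The scaling of the arrays matters for the sign of differences this small. When the arrays were scaled to the external spike-in RNAs in place of the 75th percentile, every difference shifted by the same -0.19, that of PRKAA2 included (to -1.74). The median of all tested probes was then -0.20, all 11 probes were lower with the mimic, and 5 of the 11 (PRKAA2, PRKAB2, PRKAG2 and both CAB39 probes) were called, where 44.6% of all tested probes were called lower. The second PRKAA1 probe, PRKAB1, PRKAG1, STK11 and CAMKK2 changed sign. Any positive difference under 0.19 must do so, and the directions given above for these probes hold relative to the 75th percentile only. In a bulk sample less of a transcript per cell cannot be told apart from fewer cells that carry it. In limma the call of PRKAA2 was also made with quantile normalization, scaling over detected probes, normexp, the value table of the series, an intensity trend and robust variances. It was lost without any one of the 4 arrays, with no filter on dim probes or a filter on at least 1 array, with the methods' t-test after adjustment and with the replicate number as a block. The probe was not tested with a filter on all 4 arrays. Since PRKAA2 was chosen on these same arrays, nothing is read from the settings that kept or lost its call. With no filter, the filter on at least 1 array or the replicate block, limma called 0 of all tested probes. The loss under those settings is therefore not particular to PRKAA2.

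**Figure D3:**
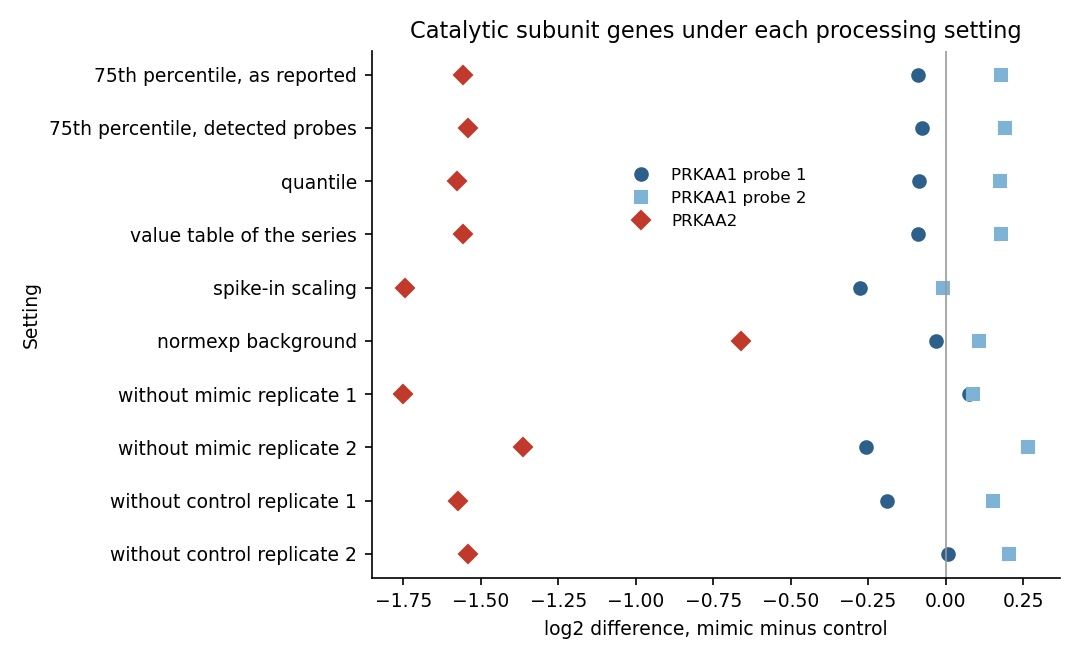
Difference between mimic and control for PRKAA2 and for both PRKAA1 probes (log2 scale, horizontal axis) under each processing setting and with each array left out (vertical axis). PRKAA2 lies between -1.75 and -1.36 except under normexp, at -0.66, while the brighter PRKAA1 probe lies on either side of 0.

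The profile of PRKAA2 over the 4 arrays, centered on its mean, was compared with those of all other tested probes with a gene name. The nearest was SCD5, a stearoyl-CoA desaturase, at a Euclidean distance of 0.14 on the log2 scale. It read -1.02 and -1.30 on the mimic arrays and 0.28 and 0.49 on the control arrays, and was well above background on all 4. RNF141, a RING finger protein gene, was among the 3 nearest at a distance of 0.45, with a difference of -1.25. For the brighter PRKAA1 probe the nearest profiles were TNKS, ZNF43 and ZNF484, at distances of 0.04, with differences between -0.11 and -0.05. They share with PRKAA1 a lower mimic replicate 1 and no separation of the groups. Likeness over 4 arrays of the same hybridization is a description.

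The genes that work around AMPK were then counted, from lists written from general knowledge. Of 92 genes, 86 had a tested probe, 5 had a probe that was not tested and for 1 no probe carried its name. In limma 0 of the 86 passed an adjusted p of 0.05, where 2.62% of all tested probes passed. An unadjusted limma p below 0.05 was found for 16, where 25.3% of all tested probes had such a p. Of these 16, 13 were lower with the mimic and 3 higher. The directions of all tested probes at that p were not counted, so nothing is read from this split. By sign alone 54 of the 86 were lower and 32 higher, where 53.8% of all tested probes were lower. Their median difference was -0.04, against -0.01 over all tested probes. Under spike-in scaling 46 of the 86 passed, where 47.2% of all tested probes passed. Of the 86, 82 were then lower, with a median of -0.23, against -0.20 over all tested probes. That scaling shifts every difference by -0.19, so these directions depend on it.

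Of the partners of LKB1 and the other kinases that can phosphorylate AMPK, 7 of 7 were tested, 2 lower and 5 higher (median 0.03). TAB1 and TAB2, partners of the kinase TAK1, differed by 0.09 ± 0.13 and 0.08 ± 0.04 (SE, n = 2; limma adjusted p 0.707 and 0.293). Of the phosphatases and other negative regulators, 8 of 10 were tested, 5 lower and 3 higher (median -0.05). PPM1E, a phosphatase that acts on the activation loop of AMPK, read -2.06 and -1.83 with the mimic but -0.04 and -1.79 in the control. Its difference of -1.02 ± 0.66 (SE, n = 2; limma adjusted p 0.4) thus came from control replicate 1 alone. WWP1, a ubiquitin ligase, differed by -0.18 ± 0.04 (SE, n = 2; limma adjusted p 0.116).

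The AMPK-related kinases, which LKB1 also activates, were all tested (12 of 12), 8 lower and 4 higher with a median of -0.09. SIK1, a salt-inducible kinase, read -1.45 and -1.77 on the mimic arrays and -0.89 and -1.12 on the control arrays, which did not overlap. Its difference of -0.61 ± 0.15 (SE, n = 2) was past 1.5-fold but not past the limma threshold (adjusted p 0.131). SIK2 differed by -0.35 ± 0.13 (SE, n = 2; limma adjusted p 0.217).

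Substrates of AMPK in lipid and glucose metabolism were all tested (16 of 16), 13 lower and 3 higher with a median of -0.10. Under spike-in scaling, which shifts every difference by -0.19, all 16 were lower. PFKFB3, which makes the activator of glycolysis fructose 2,6-bisphosphate, read -0.03 and 0.26 with the mimic and 0.51 and 0.54 in the control, a difference of -0.41 ± 0.11 (SE, n = 2; limma adjusted p 0.15). LIPE, the hormone-sensitive lipase, differed by -0.34 ± 0.30 (SE, n = 2; limma adjusted p 0.522), with overlapping groups. Substrates in growth control and autophagy numbered 19 tested of 19, 12 lower and 7 higher (median -0.04). FNIP1, which binds folliculin and AMPK, differed by 0.24 ± 0.09 and TFEB, a regulator of lysosomal genes, by -0.24 ± 0.09 (SE, n = 2; limma adjusted p 0.21 and 0.208), and the other TFEB probe by -0.04.

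Of the transcription regulators under AMPK 12 of 14 were tested, 9 lower and 3 higher (median -0.06). FOXO1, a forkhead factor, had the smallest adjusted p of the 86 genes, 0.0537 in limma with a difference of -0.30 ± 0.04 (SE, n = 2). It passed with the filter on all 4 arrays (limma adjusted p 0.0463) and under spike-in scaling (limma adjusted p 0.0211). It did not pass with quantile normalization, scaling over detected probes, an intensity trend or normexp (limma adjusted p 0.0547, 0.0549, 0.0554 and 0.0932). FOXO1 was named after its value was seen. PPARGC1A, the coactivator PGC-1alpha of mitochondrial genes, differed by -0.46 ± 0.14 (SE, n = 2; limma adjusted p 0.169). CRTC3, a coactivator of CREB, read 0.52 and 0.56 with the mimic and 0.57 and 1.51 in the control, so that its difference of -0.50 ± 0.35 (SE, n = 2; limma adjusted p 0.439) came from control replicate 2. In the list for adenine nucleotides, whose enzymes and carriers set the AMP and ATP that AMPK senses, 11 of 13 were tested, 5 lower and 6 higher (median 0.01). AMPD3, an AMP deaminase, differed by -0.21 ± 0.04 and NT5C2, a cytosolic nucleotidase, by 0.21 ± 0.07 (SE, n = 2; limma adjusted p 0.0928 and 0.187). The other tested NT5C2 probe differed by 0.40.

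**Figure D4:**
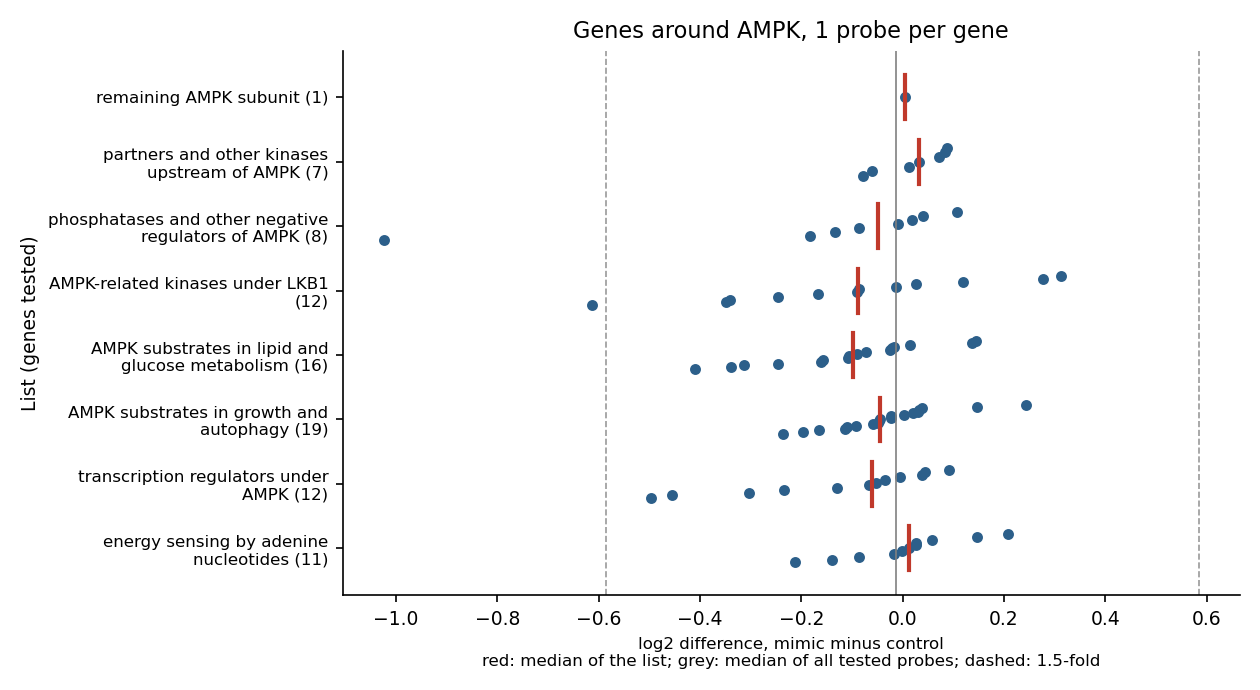
Difference between mimic and control for 86 tested genes around AMPK in their lists, 1 probe per gene (points, log2 difference; red bars, median of the list; grey line, median of all tested probes; dashed lines, 1.5-fold). The list medians lie between -0.10 and 0.03, and the 2 genes past 1.5-fold are PPM1E and SIK1.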

How the data were processed

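For each of the 4 arrays (1 color) the authors deposited the scanner output, in which the processed intensity of every spot was background-subtracted by Agilent Feature Extraction 10.7.3.1 and not normalized between arrays, with flags for outlier, saturated and detected spots. The deposited value table of the series holds the same processed intensity, rounded. Here control spots and outlier spots were left out, spots of a probe were averaged as log2 values, and the 75th percentile of each array was subtracted. A probe was well above background when at least 0.5 of its spots carried that flag, and was tested when this held on both arrays of a group. The mimic and control groups were compared in R 4.3.3 with limma 3.58.1 (adjusted p threshold 0.05), checked on data built with known changes, and figures were drawn with matplotlib 3.10.9. A gene outside the 9 was represented by its tested probe with the highest mean signal. The genes and lists were chosen with earlier results of these data known. Named from each list were genes that passed or, failing 2, those with the largest differences among probes detected on all arrays, and the 3 nearest profiles of each catalytic gene; 1 of these is not reported here. Names and positions (hg19) were taken from the array files, and an older symbol was used for MTFR1L (FAM54B). All arrays shared 1 slide and 1 scan time. Replicate numbers were assigned here in the order of the sample titles, which number the arrays consecutively across both groups. They mark no known pairing of mimic and control arrays. Replicates with the same number did not deviate together (correlation 0.03).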

Additional observations from a re-analysis of the deposited data

How the results depend on the processing

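The number of arrays, and for PRKAA2 the signal over background, limit these values. The 532 probes called (233 lower, 299 higher) became 1550 under normexp (758 lower, 792 higher), 9592 under spike-in scaling (9076 and 516) and 3083 with an intensity trend (1736 and 1347). Without a filter limma called 0 probes (3627 had an unadjusted p below 0.05), as it did when 1 detected array was enough (0 called, 4696 unadjusted) and with the replicate number as a block (0 called, 4400 unadjusted). The block cannot move a difference of means here, because each group was given both replicate numbers, which mark no known pairing. The differences of PRKAA2 (-1.56) and PRKAA1 (-0.09) were therefore unchanged by construction. A t-test, which the study names for continuous variables but not for the arrays, gave 4115 probes before adjustment (p below 0.05) and 0 after it. Without 1 array in turn 0 to 8 passed. The share of higher calls was 56.2% in the main comparison, 5.38% under spike-in scaling, 43.7% with the trend and 50.9% with the filter on all 4 arrays. Of the pathway genes 0 passed, and 2 did under normexp (1 of them AMPD3), 46 under spike-in scaling, 1 with the filter on all 4 arrays, 11 with the trend and 13 by the unadjusted t-test. The 298 probes over 1.5-fold lower and 494 higher became 74 and 98 under normexp, 774 and 271 under spike-in scaling, 175 and 277 with the filter on all 4 arrays, 1075 and 1204 when 1 detected array was enough, 2759 and 3299 with no filter, and 70 and 153 at a 2-fold limit. The difference of PRKAA2 was -0.66 under normexp, and with single arrays left out it lay between -1.75 and -1.36, and that of PRKAA1 between -0.26 and 0.08. The cause was not tested, except that the filters change which probes are tested, leaving out an array removes a sample, and the normexp offset shrinks dim probes by construction. Of the 11 probes, 5 kept their sign in all 9 alternatives. A slide or scan block was not run, since all arrays shared both.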
